A study of Homo sapiens with 2 samples.

Results

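The SIGLEC genes of human chromosome 19 were examined for the positions at which LDB1 was found in NB4 cells. The 10 genes CD33, SIGLEC5, SIGLEC6, SIGLEC7, SIGLEC8, SIGLEC9, SIGLEC10, SIGLEC11, SIGLEC12 and SIGLEC14 were studied out of 20033 protein-coding genes of GENCODE release 44. The genes were chosen by the number and length of their LDB1 peaks, because the cluster was known to hold a very long peak and a dense megabase. Their peak counts, lengths, distances and motifs are therefore descriptions and were not tested. A peak was assigned to a gene when it overlapped the gene body or the 20 kb on either side, here called the window of the gene. These windows held 20 of the 11046 deposited peaks. The windows of neighbouring genes overlap, so 6 of the 20 peaks were counted for a pair of genes, and the genes are not replicates of each other.

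The peaks came from CUT&Tag, an assay in which an antibody guides a transposase to a chromatin protein and the DNA cut around it is sequenced. NB4 is a human cell line from acute promyelocytic leukemia. The LDB1 group was 1 library made with an antibody to LDB1 from NB4 cells labelled as LDB1 overexpression, and the IgG group was 1 library made with nonspecific IgG from NB4 cells labelled as untreated, so antibody and treatment differed together and their effects cannot be told apart. The peak list analysed here was that of the LDB1 library. It gives the position and length of each peak and no height or read count, so the depth was unknown, no background could be measured in IgG, and no replicate error exists for any value. The list holds no expression values, so neither the cell identity nor the level of LDB1 could be checked against marker genes.

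Siglecs are sialic acid-binding immunoglobulin-like lectins on the surface of blood cells. Most members carry inhibitory tyrosine motifs in their cytoplasmic tail that recruit phosphatases, while SIGLEC14 pairs with the adaptor DAP12, the product of TYROBP, and activates the cell. CD33 is a marker of myeloid cells and of acute myeloid leukemia blasts. The chromosome 19 genes arose by repeated duplication and share long stretches of similar sequence, and several copies are pseudogenes. LDB1 does not bind DNA itself. It forms a complex with LMO2 and DNA-binding partners such as TAL1, which reads E-box sequences, and GATA factors. The complex is known to occupy an E-box motif placed a short distance before a GATA motif.

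The sequences that carry the main observations are printed first. A GATA motif is AGATAA or AGATAG, or the same letters with T in the first place, on either strand, and a composite is CTG followed after 7 or 8 bases by a GATA motif. The windows held 6 composites inside peaks, found in 3 peaks. They are shown on the strand of the composite with 20 bases on each side, with CTG and the GATA motif in capitals, in hg38 coordinates. In the SIGLEC7 intron 6 peak a pair of composites on opposite strands overlap, so both are in capitals in a single line, and the similar place in SIGLEC9, which lay in no peak, is set under it.

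SIGLEC7 intron 6 peak, chr19:51147799-51147855, plus strand: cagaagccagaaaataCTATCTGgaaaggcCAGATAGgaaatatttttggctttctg
SIGLEC9 similar segment outside any peak, chr19:51128867-51128923, plus strand: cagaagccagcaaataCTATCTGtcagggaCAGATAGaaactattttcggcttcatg
Peak upstream of SIGLEC12, chr19:51508209-51508265, minus strand: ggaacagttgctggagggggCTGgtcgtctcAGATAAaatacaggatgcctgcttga
Same peak, chr19:51508271-51508326, plus strand: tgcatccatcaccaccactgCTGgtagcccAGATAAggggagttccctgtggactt
Longest peak upstream of SIGLEC6, chr19:51546873-51546929, plus strand: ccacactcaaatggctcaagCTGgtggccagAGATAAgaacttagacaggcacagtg
Same peak, chr19:51549822-51549878, plus strand: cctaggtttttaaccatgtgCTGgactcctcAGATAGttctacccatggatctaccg

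A peak without any GATA motif is shown for contrast. It is the part of the SIGLEC6 promoter peak that lies upstream of the annotated gene, with the E-box CAGATG in capitals.

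SIGLEC6 promoter, chr19:51531857-51532024, minus strand: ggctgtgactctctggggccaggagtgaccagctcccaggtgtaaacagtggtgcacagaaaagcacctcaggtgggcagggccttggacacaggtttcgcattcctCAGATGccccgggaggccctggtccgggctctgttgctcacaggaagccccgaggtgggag

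At least 1 LDB1 peak was found in the windows of 9 of the 10 SIGLEC genes, compared with 31.7% of all protein-coding genes. Since the genes were chosen on these peaks, nothing is read from this difference. The median was 1.5 peaks per SIGLEC window and 0 per window of all protein-coding genes. A single member, SIGLEC6, held at least 9 peaks, as did 0.519% of all protein-coding genes. The highest count of any gene was 50, at GSE1, which is far longer than SIGLEC6. Counts were not adjusted for gene length. The peaks were unevenly spread over the members. SIGLEC6 had 9, SIGLEC8 had 5, SIGLEC9 and SIGLEC12 had 3 each, SIGLEC7 had 2, CD33, SIGLEC5, SIGLEC10 and SIGLEC14 had 1 each, and SIGLEC11 had 0.

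**Figure D1:**
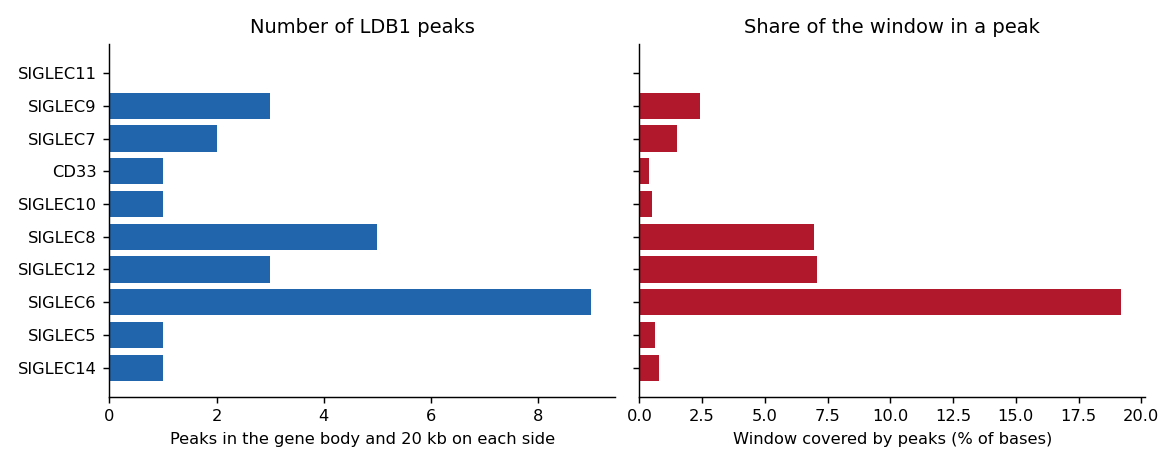
Number of LDB1 peaks (left, bars) and share of the bases covered by peaks in percent (right, bars) in the gene body with 20 kb on each side, for the 10 SIGLEC genes in chromosome order. SIGLEC6 stands above the rest in both panels, with 9 peaks and 19.2% of its window covered, and SIGLEC11 has no peak.

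The share of the window covered by peaks separated the genes further. It was 19.2% for SIGLEC6, 7.08% for SIGLEC12 and 6.94% for SIGLEC8, and between 0.396% and 2.41% for the other genes with a peak. Joined end to end without double counting, the windows formed 5 stretches of 417309 bp in all, with 47.9 peaks per Mb and 3.78% of bases in a peak. Chromosome 19 as a whole had 9.57 peaks per Mb and 0.611% of bases in a peak, and all assembled bases of the genome had 3.76 per Mb and 0.215%. Within the cluster, the stretch that joins SIGLEC10, SIGLEC8, SIGLEC12 and SIGLEC6, chr19:51390020-51551856, held 15 of the 20 peaks. The stretch of SIGLEC9 and SIGLEC7 held 3, those of CD33 and of SIGLEC5 with SIGLEC14 held 1 each, and that of SIGLEC11 held 0.

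**Figure D2:**
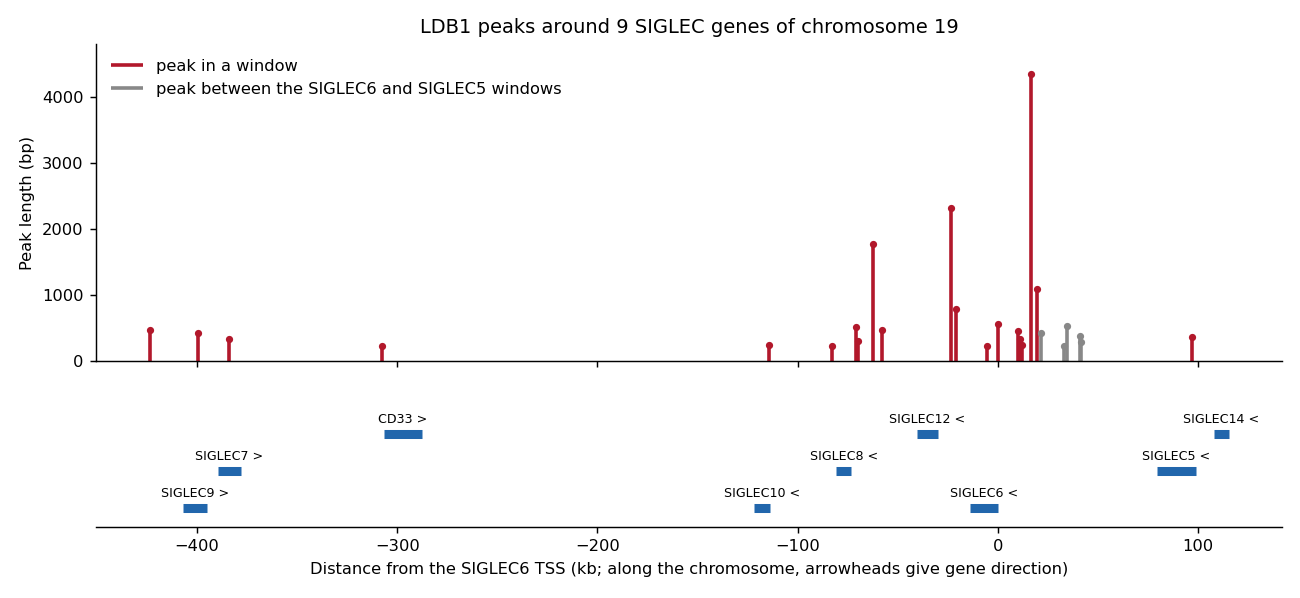
LDB1 peaks around 9 SIGLEC genes, with the distance from the SIGLEC6 start site in kb along the chromosome on the horizontal axis and peak length in bp on the vertical axis (red, peaks in a gene window; grey, 5 further peaks between the SIGLEC6 and SIGLEC5 windows; blue bars, genes with an arrowhead for direction). The long peaks crowd around SIGLEC8, SIGLEC12 and SIGLEC6, up to 4348 bp, while no peak near SIGLEC9, SIGLEC7, CD33 or SIGLEC5 is longer than 481 bp.

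SIGLEC6 codes for an inhibitory Siglec known from mast cells and placental trophoblast. The gene (ENSG00000105492.16) lies at chr19:51517819-51531856 on the minus strand, and the start site of its canonical transcript is base 51531670. A peak of 564 bp, chr19:51531461-51532024, covered this start site, with its midpoint 72 bp upstream. The midpoint lay in the noncoding part of exon 1 of another SIGLEC6 transcript, which starts further upstream. No other member had its canonical start site inside a peak, against a background of 1.59% of protein-coding genes. A peak of 231 bp lay in intron 7, 5595 bp downstream of the start. After a stretch without peaks, 5 peaks followed upstream within 10368 bp, of which 6478 bp were inside a peak. Moving away from the gene, these were 459, 331, 247, 4348 and 1093 bp long, with midpoints 9992 to 19584 bp upstream. The remaining pair of SIGLEC6 peaks lay beyond the other end of the gene and were shared with SIGLEC12.

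The 4348-bp peak, chr19:51545891-51550238, was the longest in the cluster and ranked 4 of 11046 by length, the longest of all being 4856 bp. Its midpoint was 16394 bp upstream of the SIGLEC6 start and 12526 bp from the nearest start site of any annotated transcript, in intergenic sequence. It held 11 GATA motifs, 9 E-boxes of the form CAGATG or CAGCTG, and both of the composites printed above, at 1163 bp before and 1786 bp after the midpoint. Of its GATA motifs, 5 lay within 250 bp of the midpoint, and the first 789 bp on the SIGLEC6 side held none. The 20-kb limit cut through this run of peaks. The outermost SIGLEC6 peak inside the limit lay 18851 bp from the gene, and the nearest outside, of 428 bp, lay 21214 bp away. Beyond it 4 more peaks, of 235 to 538 bp, followed before the SIGLEC5 window.

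SIGLEC12 codes for a protein that has lost the arginine needed to bind sialic acid in humans. The gene (ENSG00000254521.7, chr19:51491227-51501800, minus strand) had no peak in its body. Its nearest and longest peak, chr19:51507282-51509604, was 2323 bp long, ranked 83 by length, and lay 6643 bp upstream of the start site over the pseudogene SIGLEC27P. This peak held 6 GATA motifs and a pair of composites, on opposite strands and close together at 206 and 145 bp before the midpoint. Next to it, a peak of 791 bp lay 8719 bp upstream of SIGLEC12 and had 1 GATA motif. Both peaks also belonged to the window of SIGLEC6. From the 2323-bp peak to the last SIGLEC6 peak, a stretch of 44519 bp held 9 peaks that covered 10387 bp.

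SIGLEC8, an inhibitory receptor of eosinophils and mast cells, also had all of its peaks outside the gene body. The gene (ENSG00000105366.15) lies at chr19:51450847-51458456 on the minus strand. Its longest peak was 1774 bp, ranked 227, and lay 10647 bp upstream over the unnamed pseudogene ENSG00000268957, whose start site it covered. Nearer peaks of 523 bp and 305 bp lay 2202 and 3377 bp upstream, a peak of 469 bp lay 15126 bp upstream, and a peak of 234 bp lay past the 3′ end of the gene. The 3 peaks of 234, 305 and 523 bp held no GATA motif, and the 1774-bp peak held 2. The peak of 469 bp was shared with SIGLEC12, for which it lay 17412 bp from the gene, the furthest inside the limit, while the 1774-bp peak lay 21238 bp from SIGLEC12 and was the nearest outside.

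SIGLEC9 and SIGLEC7, inhibitory receptors known from neutrophils, monocytes and natural killer cells, stand side by side on the plus strand, and each had a peak in intron 6. The SIGLEC9 gene (ENSG00000129450.9) lies at chr19:51124906-51136651, and its intronic peak of 429 bp had its midpoint 7511 bp downstream of the start site. The SIGLEC7 gene (ENSG00000168995.13) lies at chr19:51142299-51153526, and its intronic peak of 336 bp, chr19:51147533-51147868, was 5399 bp downstream. Each of these peaks was counted for both genes. The third SIGLEC9 peak, of 481 bp, lay 16741 bp upstream inside intron 1 of CTU1, a tRNA-modifying enzyme, and 244 bp from an annotated start site. In the SIGLEC7 peak the pair of overlapping composites was centred 123 and 127 bp after the midpoint, and these were its only GATA motifs.

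CD33 (ENSG00000105383.15, chr19:51225064-51243860, plus strand) had a single peak of 233 bp, among the shortest of the list. Its midpoint was 789 bp upstream of the start site at base 51225080, and its near edge was 673 bp away. The peak held 2 GATA motifs, the highest number per kb of the 20 peaks at 8.58. The central 31 bases of this peak occurred 25 times in hg38, so a read of these bases alone matches several places. No other peak was within 20 kb of CD33, and the nearest outside lay 77195 bp away.

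SIGLEC10, a B-cell and macrophage receptor of CD24, had a single peak inside a coding exon. The gene (ENSG00000142512.15) lies at chr19:51410020-51417803 on the minus strand, and the 248-bp peak in exon 2 had its midpoint 302 bp downstream of the start site. None of the 10 motif types searched was found in it.

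SIGLEC5 and SIGLEC14 are paired receptors, inhibitory and activating respectively, with nearly identical ligand-binding ends, and a single peak of 374 bp was counted for both. SIGLEC5 (ENSG00000268500.7) lies at chr19:51610960-51630401 on the minus strand, and the peak lay in its intron 4, 1777 bp downstream of the start. It was 18201 bp from the start site of SIGLEC14 (ENSG00000254415.4, chr19:51639478-51646825, minus strand), with a gap of 10666 bp to the gene. The peak held no GATA motif. It held 6 RUNX motifs.

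SIGLEC11, a receptor of macrophages and microglia, lies apart from the others at chr19:49948985-49961172 (ENSG00000161640.15, minus strand) and had no peak. The nearest, of 370 bp, was 20638 bp from the gene, just outside the limit, and 20823 bp upstream of the start site.

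The 9 members other than SIGLEC11 lie between 51 and 52 Mb. This megabase, chr19:51000001-52000000, held 42 peaks, 20 of them in the SIGLEC windows. Of the 3102 such bins of the genome 2 held more, with 54 peaks in the fullest, on chromosome 16, and the median bin held 1. The megabases before and after held 10 and 16 peaks. Between SIGLEC11 and SIGLEC14, 12 of the 52 other protein-coding genes had a peak in the gene body, compared with 16.5% of all protein-coding genes and 5 of the 10 members. Between SIGLEC9 and SIGLEC14 it was 5 of 11, which were ETFB, a subunit of an electron carrier of mitochondria, with 1, CLDND2 with 1, LIM2, a lens membrane protein, with 1, the zinc finger gene ZNF175 with 2, and the unnamed gene ENSG00000269403 with 2. The unnamed gene overlaps ETFB and CLDND2, so a peak can be counted for more than 1 of these genes. The ZNF175 peaks are among those described above between the SIGLEC6 and SIGLEC5 windows.

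**Figure D3:**
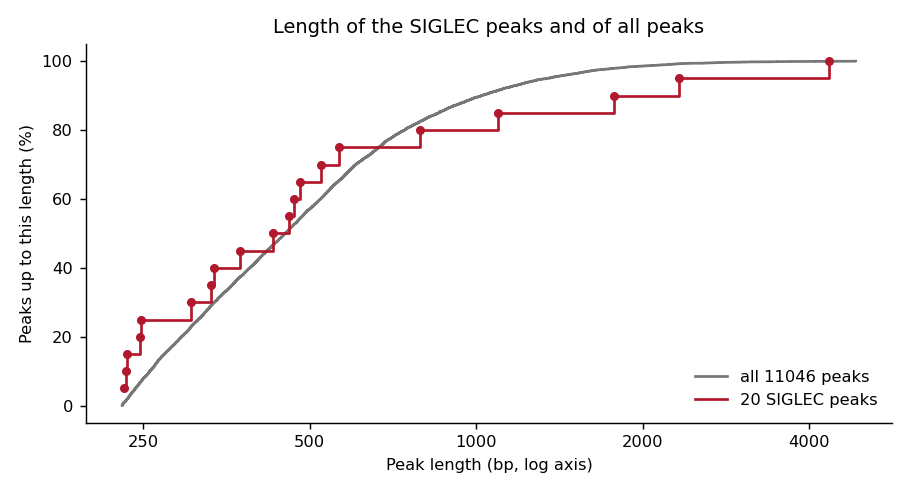
Cumulative share of peaks in percent against peak length in bp (log axis), for the 20 peaks in the SIGLEC windows (red, each point a peak) and all 11046 peaks (grey). The red curve lies above the grey one at the shortest lengths, and the curves meet near the medians of 444 and 451 bp. They then part again, with 4 of the 20 SIGLEC peaks at 1000 bp or more.

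Most SIGLEC peaks were of ordinary length, and a few were long. The median was 444 bp (231 to 4348) and that of all peaks was 451 bp (quartiles 314 and 666). At least 1000 bp were reached by 4 of the 20 peaks (20%, Wilson 95% interval 8.07 to 41.6%) and by 10.5% of all peaks. Such intervals cover counting error only. By midpoint, 13 peaks were intergenic, 5 lay in introns, 1 in a coding exon and 1 in the noncoding part of an exon. A start site of any transcript, pseudogenes included, lay within 3 kb of 11 peaks (55%, interval 34.2 to 74.2%), compared with 35.6% of all peaks. The median distance was 2286 bp, against 5775.5 bp for all peaks. The GC content of the central 200 bp had a median of 55% (45.5 to 64.0) in SIGLEC peaks and 51.5% in all peaks.

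GATA motifs were counted first in the central 200 bp of each peak. They were present in 8 of 20 SIGLEC peaks (40%, interval 21.9 to 61.3%) and in 47.1% of all peaks. At 1000 bp to either side, the share was 9 of 40 windows (22.5%) around SIGLEC peaks and 27.6% around all peaks, and 12 of these 40 windows themselves overlapped a peak. The composite was found in 0 of 20 central windows, which allows a share of up to 15.0% by the limit of 3 counts of the total (Wilson upper bound 16.1%), and in 11.1% of all peaks. The 6 composites therefore all lay off centre, between 123 and 1786 bp from the midpoint. An E-box was present in 7 windows (35.0%) and 33.8% of all peaks. The RUNX motif, TGTGGT or TGCGGT, was present in 6 (30.0%, interval 14.5 to 51.9%) and 20.5% of all peaks.

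Each motif of the other factors searched was found in at most 1 of these windows. The AP-1 motif TGACTCA or TGAGTCA, the CEBP motif TTGCNNAA or TTACNNAA, the KLF motif GGGTGTGG or GGGCGTGG, the ETS motif CCGGAAGT or CAGGAAGT and the CTCF motif were each in 0 of 20, with 9.48%, 12.2%, 6.18%, 2.36% and 0.742% of all peaks holding them. The PU.1 motif GAGGAAGT was in 1 window (5.0%) and in 1.63% of all peaks. A count of 0 of 20 allows up to 16.1% (Wilson upper bound), above each of these shares of all peaks, so no difference is read. Over whole peaks, KLF motifs were in 4 of the 20, CEBP in 3, AP-1 and PU.1 in 2 each, and ETS and CTCF in 1 each. These letters were searched on both strands, and an E-box or a composite may share bases with a GATA or another motif.

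**Figure D4:**
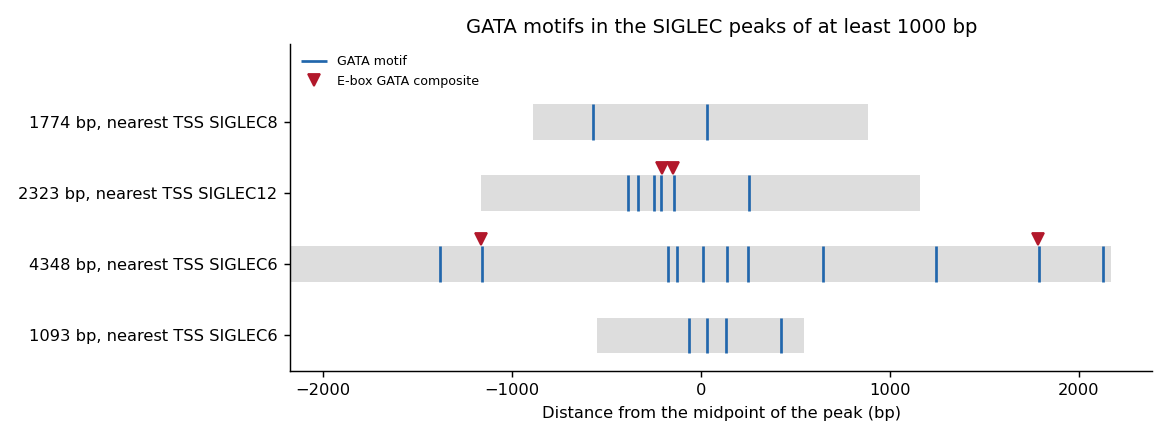
GATA motifs (blue lines) and E-box GATA composites (red triangles) in the 4 SIGLEC peaks of at least 1000 bp (grey bars), with distance from the peak midpoint in bp on the horizontal axis. The 4348-bp peak holds 11 GATA motifs and the 2323-bp peak 6, and the composites lie up to 1786 bp from the midpoint.

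Over whole peaks, 11 of the 20 held a GATA motif, with 34 in all, and 23 of these lay in the SIGLEC6 window. Viewed from the sequence, the SIGLEC windows held 686 GATA motifs, of which 34 lay in a peak (4.96%, interval 3.57 to 6.85%). They held 29 composites, of which 6 lay in a peak (20.7%, interval 9.85 to 38.4%). The 6 composites lay in 3 peaks, and several GATA motifs shared a peak. Motifs are therefore not independent draws, and both intervals are too narrow. In the whole genome 0.232% of GATA motifs and 1.21% of composites lay in a peak. More of the bases of these windows are covered by peaks, as given above, and the genes were chosen on these peaks, so nothing is read from the larger shares. Per kb, GATA motifs numbered 2.15 inside SIGLEC peaks and 1.62 elsewhere in the windows, and composites 0.38 and 0.0573.

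The composites inside peaks lay in the windows of SIGLEC6, SIGLEC12, SIGLEC7 and SIGLEC9. SIGLEC6 had 8 in its window and 4 in a peak, and SIGLEC12 had 3 and 2. SIGLEC7 and SIGLEC9 each had 7, of which the same 2, in SIGLEC7 intron 6, were in a peak. CD33 had 4, SIGLEC5 and SIGLEC10 had 3 each, SIGLEC11 and SIGLEC14 had 2 each and SIGLEC8 had 1, all outside peaks. GATA motifs were most frequent in the window of CD33, with 121, of which 2 lay in its peak.

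The promoters of the members were taken as the RefSeq sequences of GRCh38.p14 from 250 bases before to 50 after each start. They were searched for the same motifs. Of 12 promoters for the 10 genes, 0 held a GATA motif and 0 a composite, compared with 25% and 1.34% of 35116 promoters. An E-box was found at SIGLEC5 and SIGLEC6 and in 29.8% of all promoters. The ETS motif was found at SIGLEC7 and SIGLEC12 and in 7.02% of all, and the AP-1 motif at SIGLEC11 and in 4.95%. These counts rest on 12 promoters of duplicated genes, with SIGLEC9 and SIGLEC12 entered more than once. No interval was computed, so nothing is read from them. The SIGLEC6 promoter was the only one inside a peak, with all 300 of its bases covered.

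Because the genes are duplicates, each peak was aligned to the region that holds the cluster, and segments of at least 200 aligned bp elsewhere in it were listed. A similar segment was found for 11 of the 20 peaks, 81 segments in all, 64.8% to 85.6% identical. Of these, 8 met another peak. A match between a pair of SIGLEC peaks was listed from both sides, so the 8 hold fewer distinct pairs of peaks. No share was computed for unrelated segments of this region, so nothing is read from the 8. The region searched also holds other genes, and not every segment is a copy of a SIGLEC gene. The 1093-bp peak had 14 of the segments, 2 of which met a peak, and many of the 14 lay in zinc finger genes. Only simple repeats were masked in this search.

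**Figure D5:**
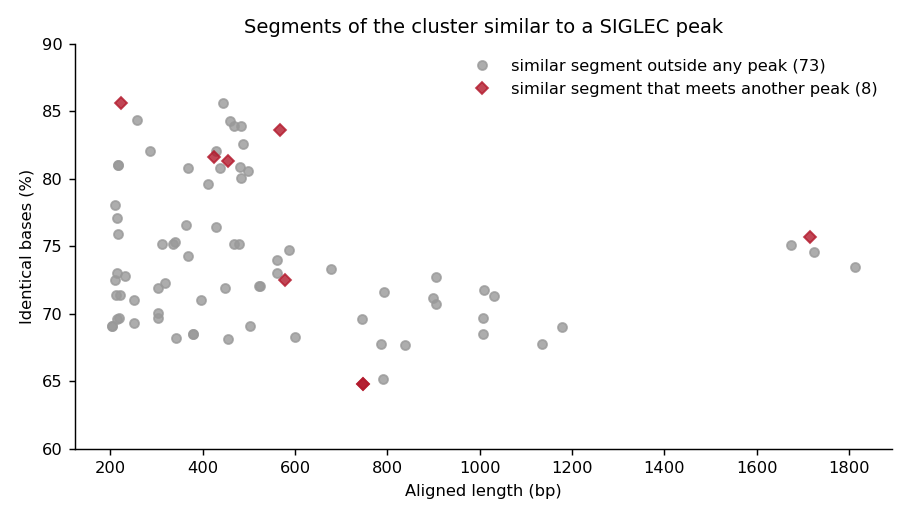
Percent of identical bases against aligned length in bp for the 81 segments of the searched region similar to a SIGLEC peak (grey circles, 73 segments outside any peak; red diamonds, 8 that meet another peak). The region also holds other genes, such as zinc finger genes, and a match between a pair of SIGLEC peaks counts from both sides. Segments inside and outside peaks overlap in both length and identity, from 64.8% to 85.6% identical.

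The 1774-bp peak over the pseudogene next to SIGLEC8 had the most copies, 18. Its copy at the SIGLEC6 start site, 1715 bp long and 75.7% identical, met the SIGLEC6 promoter peak, and a 748-bp copy over SIGLEC27P, 64.8% identical, met the 2323-bp peak. Its copy at the CD33 start site was 1674 bp long and 75.1% identical and met no peak. Copies at the pseudogenes SIGLEC17P, of 1814 bp and 73.5%, and SIGLEC22P, of 1725 bp and 74.6%, also met none. From the other side, the 564-bp SIGLEC6 promoter peak had 7 similar segments, and the 1 that met a peak was in the 1774-bp peak, 72.5% identical. The segment at the CD33 start site was 73.0% identical and lay outside any peak.

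The SIGLEC7 intron 6 peak had its longest similar segment in SIGLEC9, over 340 aligned bp with 75.3% identity. A shorter segment in SIGLEC12, 77.1% identical over 214 bp, matched a part of the peak without a GATA motif and met no peak. The SIGLEC9 copy, chr19:51128606-51128936, kept both GATA motifs and both composites, as the printed sequences show, and lay outside any peak. The copy in the pseudogene SIGLEC20P, 75.2% identical, kept 2 GATA motifs and no composite and also met no peak. Part of the 2323-bp peak with both of its composites and 4 GATA motifs had a similar segment at SIGLEC10, 75.2% identical over 479 aligned bp. This segment, chr19:51417734-51418199, overlapped the 5′ end of the gene but lay mostly upstream of it. It held 2 GATA motifs and no composite and met no peak. The SIGLEC10 exon 2 peak had 12 similar segments, none in a peak. Those in SIGLEC11 and SIGLEC16 were both 81.0% identical, and that in CD33 was 71%.

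Among the 20 peaks, 2 had central 31 bases with more than a single place in hg38 (10%, interval 2.79 to 30.1%), those of CD33 and of the 1093-bp peak with 2 copies, compared with 10.7% of all peaks. Over whole peaks, the share of 31-base words found once ranged from 66.4% for the 247-bp peak upstream of SIGLEC6 to 100%. Without the peaks whose centres are repeated, 8 members kept a peak and CD33 had none.

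Other Siglec genes and genes that work with Siglecs were read in the same way. Of 5 other Siglec genes, CD22 and MAG had 3 peaks each, SIGLEC16 had 1, and SIGLEC1 and SIGLEC15 had 0. Part of SIGLEC16 lies in the window of SIGLEC11. Of 9 genes of Siglec signalling, 6 had a peak, with 3 at the lipid phosphatase gene INPP5D, 2 at the kinase LYN, and 1 each at the phosphatases PTPN6 and PTPN11 and the adaptors TYROBP and HCST. Of 15 genes that make or transfer sialic acid, the ligand of these receptors, 8 had a peak, led by the sialyltransferases ST3GAL2 with 14 and ST6GAL1 with 12. Of 4 sialidases, which remove sialic acid, NEU3 had 2 and the others 0. The same background of 31.7% of protein-coding genes applies to these counts, and neighbouring genes can share a peak.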

How the data were processed

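CUT&Tag was performed with an LDB1 antibody and with IgG on NB4 cells, 1 library each. Per the methods and the processing notes of the submitters, paired-end reads were aligned to hg38 with Bowtie2 2.4.4 and peaks were called with MACS3 3.0 at a q-value limit of 0.01. Whether IgG served as control and how duplicates were treated is not given in the sources used here. The table the authors deposited lists where each peak starts and ends and its length in bp, with no count, signal or score. Positions were read as 1-based, since end minus start plus 1 equals the length in every entry.

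Peaks were overlapped with GENCODE release 44 genes extended by 20 kb. Motifs were searched in the central 200 bp, in flanks at 1000 bp and in whole peaks. Repeated centres were words of 31 bases counted in hg38. Similar segments were found with BLAST 2.17.0 (e-value limit 1e-10). Wilson 95% intervals were computed with SciPy 1.17.1 under Python 3.11.15, with pysam 0.24.0 and pandas 2.3.3. The counting steps were tested on simulated data. No test between groups was made. The other settings tried were other gene windows, the overlap rule, longer peaks, peaks with unrepeated centres, merged peaks, other definitions of a start site and other motif windows.

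The genes and lists were chosen with earlier results of these data known. All 10 genes are named, each with its nearest and its longest peak, the longest peaks, each peak with a composite, other genes of the cluster with a peak, and the 5 genes elsewhere with the most peaks. Some sequences are not reported here.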

Additional observations from a re-analysis of the deposited data

How the results depend on the processing

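Of 55 values recomputed under other settings for 7 results, 6 moved beyond a limit of 1.5 times for a count or the 95% interval of the reported value for a share or median, and 49 did not. With 20 peaks these intervals are wide. Over the settings the share with a GATA motif ran from 22.2% to 60%, the share near a start site from 35% to 77.8%, and the share with a composite from 0% to 15%. With 3 kb in place of 20 kb on each side of the genes, the peaks in the windows fell to 9, with the 77.8% share near a start site. With the 5523 longest peaks only, 10 peaks were left in the windows, 4 genes had a peak, their median length was 677.5 bp, and the megabase from 51 to 52 Mb held 24. The smaller counts follow from fewer bases or fewer peaks being counted. The larger median follows from keeping only the longer peaks, and the 77.8% share comes with windows drawn closer to the genes. A stricter score or q-value limit could not be run, since the list used here has no such column. No paired analysis was possible because neither antibody had a second library. Without heights, depth or replicates, a weak and a strong peak count alike, and how many peaks a repeat of the experiment would find again is unknown.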

Other observations

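Other gene families, most of them of leukocyte surface proteins, were read in the same windows, in which 31.7% of all protein-coding genes had an LDB1 peak. All 3 formyl peptide receptor genes, which sense bacterial peptides on neutrophils, had peaks, with 10 at FPR1, 7 at FPR3 and 3 at FPR2. Their windows overlap and held 10 distinct peaks, all in the same megabase as the SIGLEC peaks and none shared with a SIGLEC window. These peaks had a median length of 687.5 bp and reached 1934 bp.

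None of 7 KIR genes and 1 of 10 LILR genes, which code for leukocyte receptors on chromosome 19, had a peak, LILRB3 with 3. Of 12 CEACAM genes 3 had one, led by CEACAM18 with 6. This gene lies inside the SIGLEC cluster, so its window can hold peaks already counted for SIGLEC genes. Of 15 KLK genes, which code for kallikrein proteases, 7 had one, with at most 2. On other chromosomes 1 of 8 CD300 genes and 4 of 16 MS4A genes had a peak. Of 31 CLEC genes, which lie on several chromosomes including 19, 5 had a peak. These were led by CLEC16A with 17, a gene of that symbol series that codes for no surface lectin receptor. Members of a family share windows and sequence, so these counts are descriptions. The genes away from the cluster with the most peaks were GSE1 with 50, SRGAP2C with 23, KSR1 with 22, and MICAL2 and MRPS22 with 20 each. All of them are much longer than SIGLEC6, and these counts were not adjusted for gene length.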
